A study of Mus musculus with 33 samples.

Results

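The wells of the Nestin-GFP library were divided by the transcript of the reporter itself. Wells with at least 1 count of eGFP, the messenger RNA of enhanced green fluorescent protein, were set against wells with 0. The library filled a 384-well plate, and 315 wells held at least 1000 transcripts without spike-ins and mitochondrial genes. Of these 315 wells, 153 were eGFP-positive and 162 were eGFP-negative, so the groups were chosen by the eGFP count and eGFP levels are given as a description only. Per the labels the library held GFP+ hippocampal cells of NestinGFP mice on the C57BL/6 strain, with the genotype given as wild-type. Both groups came from the same sort of live cells that were negative for antibodies against GluR1 and Cd24, and from the same plate, processed by SORT-seq, a 3'-end method that counts unique molecules per well. The labels leave out the age and number of the mice, the reporter line and the promoter fragment that drives the reporter. The series has 33 libraries of the hippocampal neurogenic niche, of which this was the only one from reporter mice. For Nes alone, 5 libraries of experiment 2 and a library from mice labelled as older than 12 months are set beside it. Those are also labelled as C57BL/6 mice. Because both groups are wells of 1 library, no test between them was possible: intervals below are 95% intervals that cover counting error only, and a gene is counted as higher or lower where its summed level was at least 2-fold apart.

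Nestin, encoded by Nes, is an intermediate filament protein of neural stem and progenitor cells that is lost as cells differentiate, and it is also made by cells of blood vessels. Nestin-GFP mice express a fluorescent reporter under regulatory sequence of that gene and are widely used to sort stem and progenitor cells of the dentate gyrus. Fluorescence measures a protein that can outlast its messenger RNA, so a sorted cell need not hold the transcript that the library counts. The eGFP row counts the reporter transcript and the Nes row the endogenous gene, and neither was used to group the wells into classes.

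Nes lies on the forward strand at chr3:87971078-87980451 (mm10, GENCODE vM21). The 235 bases before that start, chr3:87970843-87971077 in the RefSeq table for GRCm38.p6, are shown because the reporter is named for the regulation of this gene; the labels do not say which part of the locus drives eGFP. Capitals mark the motif CCGCCC, the core of a GC box, which a search found 2 times. The search covered both strands, so a stretch that reads GGGCGG would also have counted. Of the 32851 promoter windows in the table, 30.6% held the motif at least once over the same stretch, and 14.4% held it at least 2 times.
Nes promoter: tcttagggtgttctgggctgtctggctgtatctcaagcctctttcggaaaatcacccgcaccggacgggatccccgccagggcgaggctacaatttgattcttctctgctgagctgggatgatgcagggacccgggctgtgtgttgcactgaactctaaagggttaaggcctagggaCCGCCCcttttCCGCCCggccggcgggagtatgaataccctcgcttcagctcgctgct

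The reporter transcript was sparse. eGFP summed to 406 counts, or 207 counts per 1000000 transcripts (CPM). The positive share was 48.6% of wells (exact binomial interval 42.9% to 54.2%). Of the 153 positive wells, 78 held a single count, 75 held 2 or more, 23 held 5 or more and the highest held 21. Scaled to the transcripts of the well, eGFP in positive wells ranged from 37.7 through a median of 300 to 2155 CPM. A count of 0 allows a level of up to 559 CPM in a negative well of median depth and up to 211 CPM in the deepest negative well, of 14206 transcripts. A negative well of median depth could therefore hold eGFP at the median level of the positive wells without a count, and wells with 0 counts and wells with 1 count lie next to each other on the scale that defines the groups.

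Depth moved with the division. The positive wells had a median of 6753 transcripts and the negative wells 5372. The positive share was 24.1% in the 29 wells of 1000 to 2000 transcripts and 73.3% in the 15 wells of 12000 or more. Over the same range the eGFP level stayed between 180 and 224 CPM in each of 6 depth bins. At the lower limit of depth, the nearest well left out held 964 transcripts and the nearest well kept held 1092. The comparisons below therefore pair each positive well with a negative well of like depth, within a factor of 1.5, and give the wells of 4000 or more transcripts beside them. Pairing left 147 wells a group with medians of 6763 and 5703 transcripts, so depth was brought closer but not made equal. Mitochondrial transcripts made up a median of 8.07% of a positive well and 9.26% of a negative well.

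**Figure D1:**
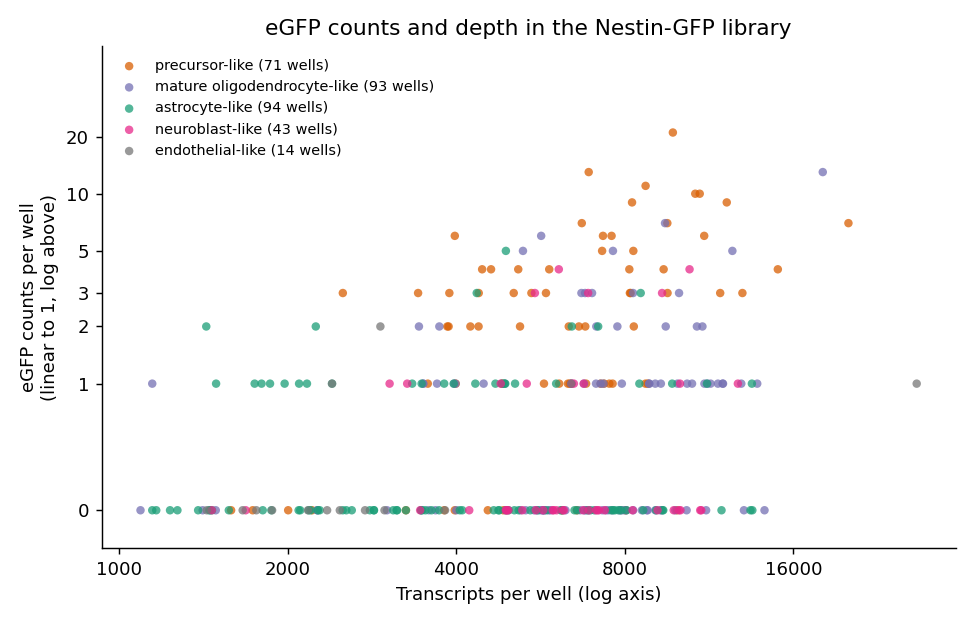
Each point is 1 of the 315 wells, with transcripts per well on a log axis against eGFP counts per well, on an axis that is linear to 1 and logarithmic above, and coloured by marker class. Wells with 0 counts lie at every depth up to 14206 transcripts, and most wells with 5 or more counts are precursor-like.

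Marker genes named all 6 clusters of wells. Precursor-like wells (71) were led by Pdgfra, Gpr17 and Cspg4, receptors and a surface proteoglycan of oligodendrocyte precursors. Mature oligodendrocyte-like wells (93) were led by the myelin genes Mbp and Mal together with Trf and Apod. Astrocyte-like wells fell into cluster 2 (62 wells, led by Itih3, Agt and Grin2c) and cluster 4 (32 wells, led by Aldh1a1, Fam107a and Mt2), and cluster 4 was shallow, with a median of 2094 transcripts against 5296. Cluster 4 took its name from the mean log2 fold of the astrocyte markers over the other wells: none of them was among its 10 leading genes, and 1 of the stem cell set, Hopx, was. Neuroblast-like wells (43) were led by Neurod1, Sox11 and Igfbpl1, genes of newly formed neurons; Cd24a, the gene of an antigen that the sort selected against, was among their 10 leading genes. The remaining 14 wells formed a mixed endothelial-like cluster, in which 7 wells held 8 or more of 10 endothelial markers, 1 well held 6 of 8 microglia markers and 1 well of 26559 transcripts held 44.8% mitochondrial RNA. No cluster was named from the stem cell set, whose summed level was highest in the astrocyte-like wells at 2692 CPM. The set of proliferating progenitors was highest in the neuroblast-like wells at 252 CPM.

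The eGFP transcript was most frequent in precursor-like wells. It was seen in 58 of 71 of them (81.7%, 70.7% to 89.9%), in 47 of 93 mature oligodendrocyte-like wells (50.5%, 40.0% to 61.1%), in 30 of 94 astrocyte-like wells (31.9%, 22.7% to 42.3%), in 14 of 43 neuroblast-like wells (32.6%, 19.1% to 48.5%) and in 4 of 14 endothelial-like wells (28.6%, 8.39% to 58.1%). The interval of the precursor-like wells lies above those of all 4 other classes, while the intervals of the astrocyte-like, neuroblast-like and endothelial-like wells overlap widely. The 2 astrocyte-like clusters had nearly the same share, 32.3% in cluster 2 and 31.3% in cluster 4, at very different depths.

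The order of the precursor-like and mature oligodendrocyte-like wells held when depth was limited or made equal. Among wells of 4000 or more transcripts, eGFP was seen in 50 of 56 precursor-like wells (89.3%), 39 of 76 mature oligodendrocyte-like wells (51.3%), 16 of 48 astrocyte-like wells (33.3%) and 12 of 38 neuroblast-like wells (31.6%). When each well was thinned to 1000 transcripts, the expected share was 33.9% in precursor-like wells, 12.8% in mature oligodendrocyte-like wells, 11.5% in astrocyte-like wells and 8.43% in neuroblast-like wells. Cluster 4 stood at 18.1% and cluster 2 at 8.05% after thinning. The intervals of their summed eGFP levels overlap (92.1 to 311 and 53.5 to 113 CPM), and the mitochondrial share was 17.1% and 16.9% in the positive and negative wells of cluster 4 against 9.92% and 9.05% in cluster 2. The part of that share in the difference was not tested.

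**Figure D2:**
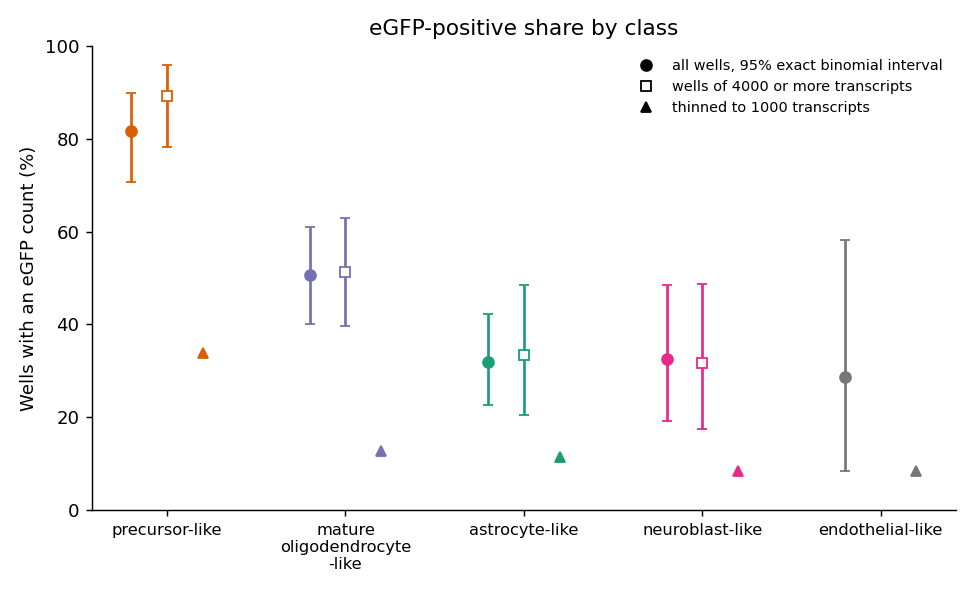
The share of wells with an eGFP count, in percent, is plotted for each class over all wells (circles), over wells of 4000 or more transcripts (squares, with the 2 such endothelial-like wells left out) and as the expectation after thinning to 1000 transcripts (triangles); bars are 95% exact binomial intervals. Precursor-like wells are highest on all 3 measures.

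The summed eGFP level, which uses the same eGFP counts, gave the same leading class. It was 485 CPM in precursor-like wells (exact Poisson interval 425 to 552), 144 in mature oligodendrocyte-like wells (117 to 175), 94.2 in astrocyte-like wells (67.9 to 127), 90.9 in neuroblast-like wells (59.4 to 133) and 81.2 in endothelial-like wells (26.4 to 189). Precursor-like wells were 3.38-fold above mature oligodendrocyte-like wells (2.66 to 4.32) and 5.34-fold above neuroblast-like wells (3.55 to 8.35). Within the astrocyte-like wells, cluster 4 stood at 178 CPM (92.1 to 311) and cluster 2 at 79.3 (53.5 to 113). Positive precursor-like wells also held more of it per well: their median was 3 counts and 16 of 58 held 5 or more, against a median of 1 count in each of the other classes.

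Transcripts of one lineage appear at a low level in wells of the others, and eGFP in those wells was set beside that level. For the 9 precursor markers with at least 100 CPM in precursor-like wells, the level in neuroblast-like wells was a median of 2.87% of the precursor level, and eGFP stood at 18.7%. In astrocyte-like cluster 2 the markers stood at a median of 3.52% and eGFP at 16.3%. In mature oligodendrocyte-like wells the markers stood at a median of 2.70% and eGFP at 29.6%. The gene above eGFP in all 3 was Sox10, a transcription factor of the oligodendrocyte lineage, at 24.1%, 21.1% and 88.0% of its precursor level; Olig1, which mature oligodendrocytes also express, was above eGFP in the mature oligodendrocyte-like wells at 34.3%. Pdgfra stood at 2.85%, 2.36% and 2.70%. How much of the eGFP in single wells came from RNA of other cells was not tested.

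The make-up of the 2 depth-matched groups differed in the same direction. It reads largely the same wells and eGFP counts by group, so it adds no separate evidence. Precursor-like wells were 57 of 147 positive wells (38.8%, 30.9% to 47.2%) and 11 of 147 negative wells (7.48%, 3.79% to 12.99%). Astrocyte-like wells were 19.05% of the positive group (13.05% to 26.3%) and 38.1% of the negative group (30.2% to 46.5%). Neuroblast-like wells were 8.16% of the positive group (4.29% to 13.8%) and 19.05% of the negative group (13.05% to 26.3%). Mature oligodendrocyte-like wells made up nearly equal shares, 31.97% (24.5% to 40.2%) and 29.9% (22.7% to 38.03%), and endothelial-like wells were few in both, 2.04% and 5.44%. In the 101 matched pairs of wells with 4000 or more transcripts, precursor-like wells were 43.6% of the positive and 5.94% of the negative group, astrocyte-like wells 15.8% and 31.7%, and neuroblast-like wells 9.90% and 25.7%. The eGFP-positive group was thus mainly of the oligodendrocyte lineage, and the negative group held the larger share of astrocyte-like and neuroblast-like wells.

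**Figure D3:**
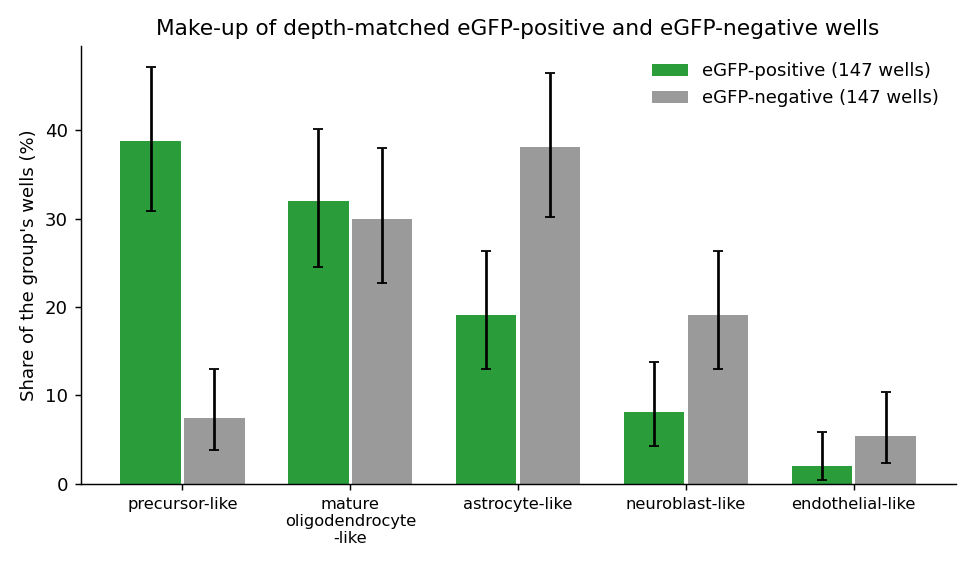
Bars give the share of wells in each class, in percent, for 147 eGFP-positive and 147 eGFP-negative wells paired for depth, with 95% exact binomial intervals. The precursor-like share is 38.8% against 7.48%, and the astrocyte-like share is 19.05% against 38.1%.

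Nes was seen in few wells of either group. It had 29 counts in 20 of the 315 wells, or 14.8 CPM (9.89 to 21.2). In the depth-matched groups Nes was seen in 11 of 147 positive wells (7.48%, 3.79% to 12.99%) and in 4 of 147 negative wells (2.72%, 0.746% to 6.82%), intervals that overlap. Without matching, it was seen in 12 of 153 positive wells (7.84%) and in 8 of 162 negative wells (4.94%).

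Depth divided the Nes wells. At 4000 or more transcripts Nes was seen in 11 of 119 positive wells (9.24%, 4.71% to 15.9%) and in 0 of 101 negative wells, which allows a share of wells with a Nes count of up to 2.97% (3 wells) or, by the exact interval, 3.59%. These limits are on wells with a count, not on wells that express the gene. Under 4000 transcripts the order was turned, with Nes in 1 of 34 positive wells (2.94%, 0.0744% to 15.3%) and in 8 of 61 negative wells (13.1%, 5.84% to 24.2%). Of the 11 deep positive wells, 5 were precursor-like, 4 neuroblast-like, 1 astrocyte-like and 1 endothelial-like. The deep groups differed in class: 50 of the 119 positive and 6 of the 101 negative wells were precursor-like, and 12 and 26 were neuroblast-like. The part of this make-up in the Nes difference was not tested. Of the 8 shallow negative wells, 3 were endothelial-like, 2 precursor-like, 2 mature oligodendrocyte-like and 1 astrocyte-like.

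By class, Nes was most frequent in the endothelial-like cluster, in 5 of 14 wells (35.7%, 12.8% to 64.9%), at 146 CPM. Neuroblast-like wells held it in 4 of 43, all of them eGFP-positive: 4 of 14 positive wells (28.6%, 8.39% to 58.1%) with 8 counts, against 0 of 29 negative wells, which allows a share of wells with a count of up to 10.3% (3 wells) or, by the exact interval, 11.9%. The level in the positive neuroblast-like wells was 82.3 CPM (35.5 to 162), and 0 counts in the negative ones allow up to 19.5 CPM. Precursor-like wells, the class with most eGFP, held Nes in 5 of 58 positive wells (8.62%) and in 2 of 13 negative wells (15.4%, 1.92% to 45.4%). Astrocyte-like wells held it in 2 of 94 (2.13%) and mature oligodendrocyte-like wells in 2 of 93 (2.15%). The class with the most reporter transcript was therefore not the class with the most Nes CPM.

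Nes was also counted in libraries of mice without the reporter. In the reporter library it was seen in 6.35% of wells (3.92% to 9.64%) at 14.8 CPM. The 5 niche libraries of experiment 2, sorted as negative for the same antibodies with no GFP gate named in the labels, came from a pair of plates and so are not 5 independent sorts. They gave 7.31% ± 4.06 of wells (SD, n = 5) and 15.8 ± 8.50 CPM (SD, n = 5), with levels from 6.37 to 28.4. A library from old mice, labelled as older than 12 months, had Nes in 3.62% of 138 wells (1.19% to 8.25%), at 13.6 CPM. None of these 6 libraries lists an eGFP row. The other libraries of the series were not read for this. The reporter library lies within the range of the 5 experiment 2 libraries on both measures. The part of cell make-up in these values was not tested.

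Within neuroblast-like wells the 2 groups differed in many genes. The 14 positive wells were paired with 14 of the 29 negative wells, at median depths of 6457 and 6214 transcripts. Of 1319 genes with at least 30 counts over both groups and a count in at least 10 wells, 89 (6.75%) were at least 2-fold higher and 93 (7.05%) at least 2-fold lower in the positive wells, with a median log2 ratio of -0.02. This comparison has fewer than 15 pairs and was added after the data had been seen. Among the named genes, Eomes and Ccnd2 were higher in the positive wells and Neurod2 and Camk2b were lower.

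Eomes, the transcription factor of intermediate neuronal progenitors (chr9:118478212-118486132, forward strand), ranged from 0 through a median of 663 to 2082 CPM in the positive wells and from 0 through 0 to 298 in the negative wells. It was seen in 11 of 14 positive and 3 of 14 negative wells, a ratio of 10.2 (4.79 to 31.01). Elavl4, an RNA-binding protein of young neurons (chr4:110203722-110351909, reverse strand), had medians of 946 and 0 CPM with a highest paired negative well at 298. Its 99 against 3 counts gave a ratio of 28.0 (10.8 to 160), the largest among the genes named for this class. Ccnd2, the cyclin D2 gene of dividing progenitors (chr6:127125162-127152193, reverse strand), had 168 against 15 counts, a ratio of 10.7 (6.50 to 20.1), and medians of 1052 and 0 CPM. The groups overlapped for each of the 3: the highest paired negative well held 1422 CPM of Ccnd2, above the positive median. The ratios depend on which negative wells were paired, which their counting intervals do not cover. Elavl4 was seen in 1 of the 14 paired negative wells. Negative wells left unpaired held up to 1222 CPM of Elavl4 and 1211 CPM of Eomes. Over all neuroblast-like wells, Elavl4 was seen in 19, of which 12 were positive, and Eomes in 20, of which 11 were positive.

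Hmgn2, a nucleosome-binding protein, was seen in all 14 positive wells, with 154 to 8366 CPM and a median of 1636, against 0 to 1014 and a median of 230 in the negative wells (ratio 7.80, 5.43 to 11.9). Mdk, the growth factor midkine, and Elavl2 had ratios of 5.30 (3.12 to 10.2) and 5.43 (3.08 to 11.01). Hspa5, 2610203C20Rik, Cd63 and Dbi completed the 10 named higher genes, with ratios from 3.64 to 4.74. These ratios did not rest on 1 well: without the well that held most counts of the gene, those of the 10 genes were 2.92 to 25.05.

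Among the genes lower in positive wells, Sema5a, a semaphorin of axon guidance (chr15:32244810-32696341, forward strand), ranged from 0 through a median of 47.9 to 208 CPM in the positive wells and from 0 through 885 to 1936 in the negative wells. It was 12.5-fold higher in the negative wells (6.23 to 34.1). Neurod2, a transcription factor of differentiating neurons, was 4.81-fold higher there (2.58 to 10.6), Camk2b, a subunit of the synaptic kinase CaMKII, 6.57-fold (3.13 to 18.2), and Chl1, a cell adhesion molecule, 5.46-fold (3.09 to 11.1). Cnr1, the cannabinoid receptor gene, was 5.55-fold higher (2.47 to 17.2), and Fosb, an immediate early gene, 8.82-fold (4.65 to 20.96). Flrt3, Nanos1, Rbfox1 and Tanc2 completed the 10 named lower genes. Each of the 10 was seen in 10 to 13 of the 14 negative wells and in 2 to 7 of the 14 positive wells.

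**Figure D4:**
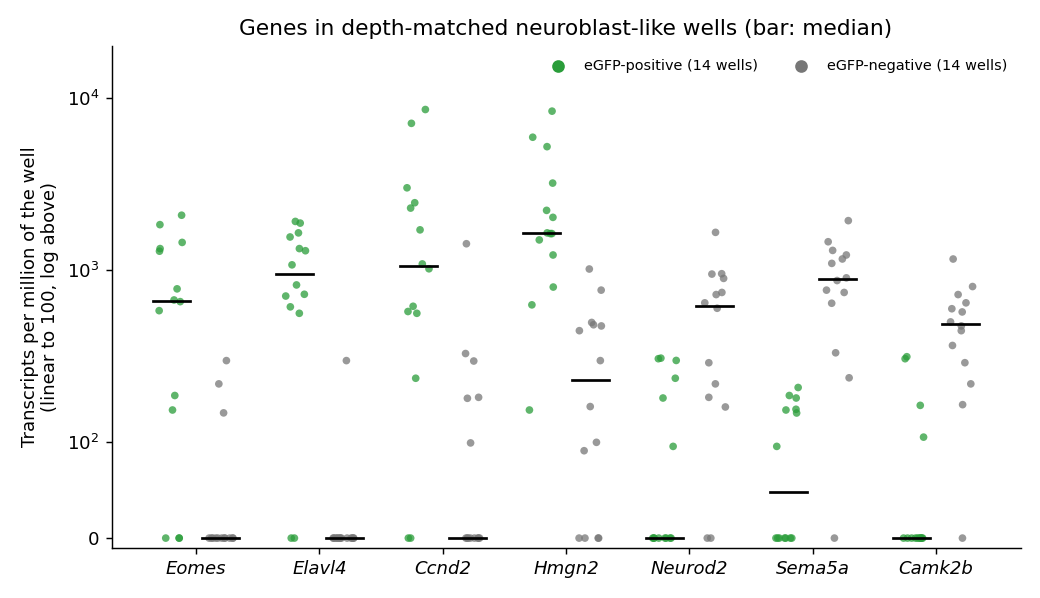
The CPM of each well is plotted for 7 genes in the 14 eGFP-positive and 14 eGFP-negative neuroblast-like wells paired for depth, on an axis that is linear to 100 and logarithmic above; each point is a well and each bar the median of 14. Eomes, Elavl4 and Ccnd2 have a median of 0 in the negative wells, and Neurod2 and Camk2b have a median of 0 in the positive wells.

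The members of the gene lists are read against the 6.75% of all 1319 genes that were at least 2-fold higher and the 7.05% that were lower. Of 30 neuronal differentiation genes compared, 6 were at least 2-fold higher in positive wells (Igfbpl1, Eomes, Stmn3, Elavl2, Elavl4 and Dpysl3) and 5 lower (Neurod2, Elavl3, Bhlhe22, Prdm8 and Tbr1), with a list median log2 ratio of 0.12. Sox11 and Neurod1, which define the class as a whole, had ratios of 1.06 (0.91 to 1.24) and 0.83 (0.66 to 1.04). Of 6 cell cycle genes compared, Ccnd2 and Pcna (ratio 2.95, 1.55 to 6.39) were higher and none was lower, with a median of 0.87. Tubb5, H2afz and Cdk4 had ratios of 1.95, 1.72 and 1.69. Of 9 stem cell genes compared, Sox2 (2.25, 1.22 to 4.53) and Msi2 (3.03, 1.63 to 6.31) were higher and none was lower. Of 13 immediate early and dissociation response genes compared, Fos, Fosb, Junb, Ier2 and Dnajb1 were lower and Dusp1 was higher, with a median of -0.44. Jun had a ratio of 1.82 (1.44 to 2.31), against the direction of Fos at 0.36 (0.27 to 0.47). Ribosomal protein genes stood at a median of -0.01 over 67 genes, none of them 2-fold apart.

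Finer clustering, which used neither eGFP nor Nes, parted the 43 neuroblast-like wells into 17 wells led by Eomes, Ccnd2 and Elavl2, with 11 eGFP-positive (64.7%, 38.3% to 85.8%), and 26 wells led by Neurod1, Neurod2 and Sema3c, with 3 (11.5%, 2.45% to 30.2%). Their summed eGFP levels were 229 CPM (145 to 344) and 16.1 CPM (3.33 to 47.2), at median depths of 6098 and 6359. These are the same wells and genes as in the comparison above, so this is a description and no second line of evidence.

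Within astrocyte-like cluster 2 a smaller share of genes stood apart than in neuroblast-like wells, at an unlike number of pairs. With wells of 1 eGFP count left out the order turned, at 12 of 149 genes (8.05%) against 14 of 216 (6.48%). Its 20 positive wells were paired with 20 of 42 negative wells, at median depths of 4899 and 5021. Of 1500 genes compared, 55 (3.67%) were at least 2-fold higher and 56 (3.73%) lower in the positive wells, with a median log2 ratio of 0.00. Sparc, a secreted matrix protein (chr11:55394500-55423183, reverse strand), had most counts among the higher genes: 242 against 67, a ratio of 3.59 (2.74 to 4.804). It ranged from 0 through a median of 1954 to 5107 CPM in positive wells and from 0 through 483 to 4134 in negative wells, and was seen in 18 and 14 of 20 wells. The ranges overlap over most of their length, and the medians are apart.

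Itih3, a hyaluronan-binding secreted protein, was 2.66-fold higher in the positive astrocyte-like wells (1.77 to 4.17), the tetraspanin gene Cd9 2.78-fold (1.63 to 5.15) and Dpysl2, a cytoskeletal regulator, 3.20-fold (1.77 to 6.47). Slc20a2, Jtb, Reep3 and Selk had ratios from 3.07 to 4.81. Tmem100, a membrane protein gene, was 4.79-fold higher (2.41 to 11.6), but 1 well held 51.1% of its counts in the positive group. Its ratio was 2.66 without that well, and its log2 ratio was 0.28 when wells of 1 eGFP count were left out. Mid1 had the highest ratio, 7.25, but 1 well held 71.1% of its counts in the positive group, and without that well the ratio was 2.22. Lower in the positive wells were Tprkb (44 against 133 counts, 3.003-fold, 2.14 to 4.36), Slc7a11, the cystine transporter (3.47-fold, 1.62 to 9.18), and Fasn, fatty acid synthase (2.52-fold, 1.45 to 4.69). Lonrf3, Cspp1, 1200014J11Rik, Paqr7, Clasp1 and Nipbl were lower by ratios of 0.28 to 0.43. Without pairing, all 20 genes that met the naming rule kept their direction and 15 remained 2-fold apart. Those under 2-fold were Slc20a2, Reep3, Itih3, Selk and Paqr7, at log2 ratios of 0.69, 0.73, 0.92, 0.98 and -0.99.

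Against the 3.67% and 3.73% of all genes of cluster 2, Slc7a11 was the one of 42 astrocyte function genes compared that was 2-fold apart, and the list median was 0.04. Cst3, Apoe, Slc1a2, Aldoc and Clu had ratios from 1.03 to 1.23. Of 18 stem cell genes compared none was 2-fold apart, with a median of 0.23: Hopx stood at 0.99 (0.77 to 1.28), Sox9 at 0.96 (0.763 to 1.198) and Slc1a3 at 1.26 (1.15 to 1.38). Nrarp, a feedback regulator of Notch signalling, was the one of 5 Notch pathway genes that was higher (2.52, 1.21 to 6.04). Transcripts of another lineage moved with the groups: the 16 mature oligodendrocyte genes compared had a median of 0.64, and the summed list stood at 9432 CPM in positive and 7142 in negative wells. Their part in the other differences was not tested.

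Finer clustering parted the 62 wells of cluster 2 into 3 clusters. A cluster of 13 wells led by Itih3, Agt and Gli1, the last a target gene of hedgehog signalling, was eGFP-positive in 7 (53.8%, 25.1% to 80.8%) at 189 CPM (103 to 317). A cluster of 30 wells led by Atp13a4, Aifm3 and Phkg1 was positive in 4 (13.3%, 3.76% to 30.7%) at 17.5 CPM (4.78 to 44.9), although it was deeper, with a median of 7003 against 5094 transcripts. The intervals of the 2 levels do not overlap. The other 19 wells of cluster 2 fell into a cluster of 27 wells led by Trim12c, Dkk2 and Camk2a, which had its highest marker score for microglia and a median of 3461 transcripts. It was eGFP-positive in 11 (40.7%, 22.4% to 61.2%) at 119 CPM (64.8 to 199), and 9 of the 20 positive wells of cluster 2 lay in it. The 20 positive wells compared within cluster 2 thus fell as 7, 4 and 9 into these 3 clusters and the 20 negative wells as 2, 14 and 4; the part of this make-up in the ratios above was not tested.

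In mature oligodendrocyte-like wells the 47 positive and 46 negative wells gave 42 pairs, at median depths of 8557 and 6851 transcripts. Of 4017 genes compared, 78 (1.94%) were at least 2-fold higher and 83 (2.07%) lower, with a median log2 ratio of -0.02. None of 34 myelin and mature oligodendrocyte genes was 2-fold apart: Mbp stood at 1.06 (0.999 to 1.12), Cnp at 0.99 (0.93 to 1.05) and Ptgds at 1.17 (1.14 to 1.21). None of 68 ribosomal protein genes and none of 68 oxidative phosphorylation genes was 2-fold apart either. With only 1.94% and 2.07% of all genes called, nothing particular to these lists is read from a count of 0.

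The named genes of this class had low counts. Eml1, a microtubule-associated protein gene, had the most, with 139 against 51 counts (ratio 2.28, 1.65 to 3.22), medians of 247 and 116 CPM, and highest wells of 1707 and 699. Ccdc132 had 28 against 2 counts (9.58, 2.97 to 102) and Ccdc104 43 against 9 (3.85, 1.93 to 9.36). Lrp6, a co-receptor of Wnt signalling, had a ratio of 2.26 (1.43 to 3.77), which was 1.90 without the well that held most counts. Hs1bp3, Chpt1, Psmd14, Tmed3 and Fam46a had ratios from 2.52 to 3.89. Xist, the X-inactivation transcript, had 31 against 5 counts, of which 48.4% of the positive counts lay in 1 well; without it the ratio was 2.58. Lower in the positive wells were Bcan, the proteoglycan brevican (2.997-fold, 1.61 to 6.14), S100b (3.43-fold, 1.55 to 9.20) and Ptprf, a receptor phosphatase (3.85-fold, 1.78 to 10.2), along with Chd1, Emilin2, Klhdc2, Eif3d, Lrrc4, Zfp740 and Pcnx. Of 14 early oligodendrocyte lineage genes compared, against 2.07% of all genes lower, Bcan, Cspg5 and Tcf7l2 were lower and none was higher, and Sox10, Olig1 and Olig2 had ratios of 1.03, 0.96 and 0.94. Bcan and S100b are also astrocyte genes, and 36.1% and 33.3% of their counts in the negative group lay in 1 well; Bcan was 1.97-fold lower without it. With mixed wells left out, both were less than 2-fold apart, at log2 ratios of -0.67 and -0.78.

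Precursor-like wells could be compared in 10 pairs only, since 13 of 71 wells were eGFP-negative, and the comparison was added after the data had been seen. The pairs had median depths of 4723 and 4704 transcripts, whereas all 58 positive wells had a median of 6859 and all 13 negative wells 3975. Of 577 genes compared, 22 (3.81%) were at least 2-fold higher and 26 (4.51%) lower, with a median log2 ratio of -0.01. Gpd1, glycerol-3-phosphate dehydrogenase (39 against 6 counts, ratio 6.02, 2.71 to 18.6), and Adora1, an adenosine receptor (31 against 6 counts, 4.801, 2.10 to 15.01), led the higher genes. Adora1 was seen in 10 of 10 positive and 5 of 10 negative wells. Pcdh17, Ccnd1, Rpn2, Epas1, Aldoc, Jun, H3f3b and Tsc22d1 had ratios from 2.04 to 3.54. Without the well that held most counts of the gene, 8 of the 20 genes that met the naming rule were less than 2-fold apart, among them Ccnd1 (ratio 1.63), Jun (1.34), Epas1, Aldoc, Tsc22d1, Cnp and Lims2.

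Bcas1, Cnp and Fyn were lower in the positive precursor-like wells. Bcas1, a marker of newly forming oligodendrocytes (chr2:170346991-170427845, reverse strand), was 3.38-fold higher in the negative wells (1.88 to 6.80), with medians of 206 CPM in positive and 556 in negative wells. Cnp, a myelin enzyme, was 2.51-fold higher there (1.51 to 4.45). Fyn, a kinase that promotes myelination, was 2.10-fold higher (1.19 to 3.97). The same negative well was highest for Bcas1, Cnp and Lims2, at 2589 CPM of each. It held 35.4%, 32.1% and 58.6% of their counts in the negative group. Without that well Bcas1 was 2.50-fold and Cnp 1.95-fold higher in the negative wells. Without pairing, the log2 ratio of Cnp was -0.69. Gpr17, a receptor of committed precursors, had a ratio of 0.62 (0.47 to 0.80), short of 2-fold, and Pdgfra, the receptor of dividing precursors, had a ratio of 1.31 (1.08 to 1.60). Against 3.81% of all genes higher and 4.51% lower, of 20 early lineage genes compared Fyn and Bcas1 were lower and none was higher, with a median of 0.05; of 11 myelin genes, Cnp was lower and none was higher, with a median of -0.23. Kank1, Zfp462, Lims2, Dynll2, Gtf2i, Sfrs18 and Clk1 were also lower. When all 71 wells were compared without pairing, 4 of the 20 genes that met the naming rule remained 2-fold apart in the same direction.

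**Figure D5:**
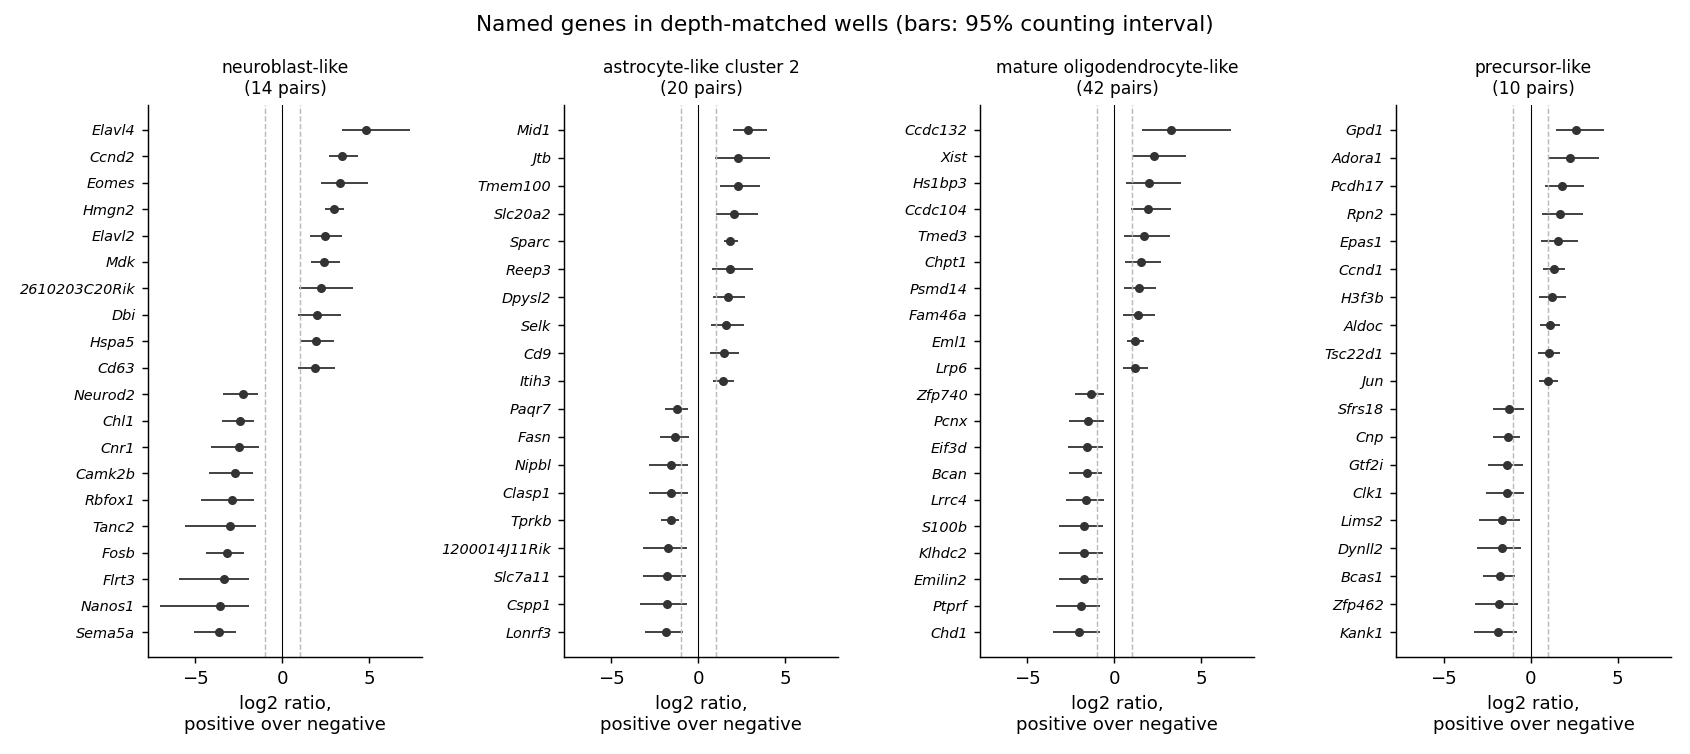
The log2 ratio of summed levels, eGFP-positive over eGFP-negative wells paired for depth, is plotted for the genes named in each of 4 classes, at most 20 a class; bars are 95% counting intervals and dashed lines mark 2-fold. The ratios of the neuroblast-like wells reach 28.0 for Elavl4 in these pairs, and most intervals in the other 3 panels cross a 2-fold line.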

How the data were processed

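Single cells were sorted into 1 plate of 384 wells and made into a SORT-seq library, per the labels. The submitters' processing notes name the genome build mm10 and the aligner BWA (0.6.2-r126), with the counting tool and annotation not given in the sources used here. Per the file, the authors deposited estimated counts per gene and well. Undoing a UMI saturation correction with a pool of 4096 UMIs gave whole numbers within 0.05 for 99.99% of values; the labels' UMI of 4 bases would have a pool of 256. The values were rounded to whole numbers. Wells kept held 1092 to 26575 transcripts, median 5948. The members and lists were chosen with earlier results of these data known.

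Wells were scaled to 10000 and clustered with scanpy 1.11.5 and leidenalg 0.10.2 (1500 variable genes, 20 components, 15 neighbours, resolution 1), without eGFP and Nes. A cluster took the name of the marker set with the highest mean log2 fold, at 1 or more with at least 3 markers in 10% of wells. No doublet caller was run; wells mixed by their markers were left out in an alternative. Positive and negative wells were paired by optimal matching on log2 depth. Counts were summed per group, and ratios of counts per 1000000 transcripts (CPM), with 0.5 counts added to each sum, carry exact conditional binomial intervals (scipy 1.17.1). Named genes are, in each class, Nes and the 10 higher and 10 lower genes at least 2-fold apart whose interval lies farthest from 1. A few genes that met this rule or belong to a list are not reported here. Classes with 15 or more pairs were compared, and those with 10 or more in an addition. Coordinates are from GENCODE vM21. The scripts were tested on simulated Poisson counts with no spread between wells of a group beyond depth. This checked the calculation, not how well the intervals hold in these data.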

Additional observations from a re-analysis of the deposited data

Results flagged for a closer look

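The 69 wells under 1000 transcripts, which entered no comparison, held eGFP as well. Over their 16566 transcripts there were 5 eGFP counts in 4 wells, or 302 counts per 1000000 transcripts (CPM), against 207 CPM in the wells kept. This signal lies in wells outside the main measurement, and the 6 libraries without the reporter that were read here list no eGFP row. With 5 counts its level is known only roughly. Among the 5 libraries of experiment 2, Nes ranged from 6.37 CPM in library H to 28.4 CPM in library C1. The share of wells with it ranged from 3.45% to 13.6% in the same 2 libraries. With 5 to 12 Nes counts a library, these values cannot show whether a library stood apart.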

How the results depend on the processing

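No paired analysis was possible because both groups are wells of 1 library, and for the same reason no library could be left out. The alternatives changed the rule for eGFP, the depth, the matching, the filter on counts, the clustering or the treatment of mixed wells; 10 pairs in place of 15, a depth ratio of 1.2, centring on the median gene and leaving out single wells were chosen after seeing the data. Of 168 values that answer a comparison, 135 stayed near their main value and 33 moved. A share was judged by the counting interval of its main value. A number of genes has no such interval and was judged by a fixed factor around its main value. Counting only wells with 2 or more eGFP counts as positive gave 23.8% of wells, and 62.0%, 19.4%, 7.45%, 11.6% and 7.14% of precursor-like, mature oligodendrocyte-like, astrocyte-like, neuroblast-like and endothelial-like wells. Thinning gave 16.4% of wells, and 33.9%, 12.8%, 11.5% and 8.43% of the first 4 classes. With wells of 1 eGFP count left out, the matched positive group was 58.7% precursor-like, 24.0% mature oligodendrocyte-like and 9.33% astrocyte-like. Endothelial-like wells were 0% of negative wells of 4000 or more transcripts, 1.36% with finer clustering and 2.26% without mixed wells, and 100% of the deep ones were eGFP-positive; coarser clustering gave no such class. Nes was in 0% of negative wells of 4000 or more transcripts.

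The number of genes 2-fold apart followed the count filter, which sets how many genes are compared. It was 161 of 4017 genes in mature oligodendrocyte-like wells, but 895 of 7523 (11.9%) with 10 or more counts and 2 of 1153 (0.173%) with 100 or more. In astrocyte-like cluster 2 it was 111, but 1033 and 4 with those filters, 198 without matching and 12 with wells of 1 eGFP count left out. In neuroblast-like wells it was 182 of 1319. In the same order of settings it was 1270 of 4778 (26.6%), 17 of 242 (7.02%), 275 of 2176 (12.6%) and 14 of 216 (6.48%). In precursor-like wells it was 48 of 577, but 704 of 2953 (23.8%) and 4 of 74 (5.41%) with the filters. There it was 667 of 4265 (15.6%) without matching and 27 of 296 (9.12%) at 4000 or more transcripts. With wells of 1 eGFP count left out, Xist (log2 ratio -0.40) and Mid1 (-1.29) reversed; the cause was not tested. The count filters cannot change a named gene's ratio and are left aside here. Over the other settings the 20 named genes of each class were 2-fold apart in 200 of 200 values for neuroblast-like wells and 191 of 200 for cluster 2. They were so in 192 of 200 for mature oligodendrocyte-like and 155 of 200 for precursor-like wells. The genes were chosen for being 2-fold apart in these wells, and most settings reuse most of the same wells. Undoing the UMI correction and centring on the median gene hardly move a ratio, and all 20 genes of each class stayed 2-fold apart under both. The tallies are therefore no test of the differences.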
